A study of Mus musculus with 2 samples.

Results

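Natural killer (NK) cells were studied in the blood of C57BL/6 mice 24 h after the proximal middle cerebral artery had been occluded for a time, a model of ischemic stroke. The aged library came from mice of 18 to 24 months and the young library from mice of 2 to 4 months, with 1 library for each age and the occlusion in both. Blood cells had been sorted as CD11b+ Ly6G- and CD11b+ Ly6G+, so NK cells without surface CD11b may have been lost, and unoperated mice were not analysed here. The members were the cells that the authors labelled NK. These were 136 of 5793 cells, 63 of 3944 in the aged library and 73 of 1849 in the young library, and 128 of them (58 aged, 70 young) were left after the removal of likely doublets. Whether mice were pooled for a library is not given in the sources used here.

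NK cells are innate lymphocytes that kill infected, transformed or stressed cells by releasing granules of perforin and granzymes onto them. Whether an NK cell fires depends on the balance between activating receptors and inhibitory receptors, many of which read MHC class I molecules on the target cell. In mice the Ly49 family of such receptors is expressed by each NK cell in its own combination, and mature NK cells in blood carry CD11b. After stroke, NK cells are known to enter the ischemic brain, and lymphocytes of the blood are known to become fewer.

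The 58 aged NK-labelled cells held 139452 UMIs (unique molecular identifiers, 1 for each captured transcript) and the 70 young ones held 149663. The median was 2314 UMIs and 924.5 genes per cell in the aged library, against 2000.5 UMIs and 930.5 genes in the young library. Levels are given as CPM, the UMIs of a gene among 1000000 UMIs summed over all cells of a population. With 1 library per age there was no replicate, no test was made, and each comparison of ages is a comparison of these libraries. All intervals are at 95% and cover counting error only. The libraries shared 12 cell barcodes, of which 1 belonged to an NK-labelled cell.

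The first question was whether the labelled cells carried the transcripts of NK cells. They did as a population, and all 6 marker genes stood far above their level in every other labelled population with cells in both libraries. Gzma, which encodes the granule protease granzyme A, was at 10663 CPM in aged NK cells and 10256 CPM in young NK cells. In all other cells Gzma was at 5.68 CPM in the aged library and 23.5 CPM in the young library. Ccl5, a chemokine that NK and memory T cells store as transcript, was the most abundant of the 6, at 32958 CPM in aged NK cells and 25010 CPM in young NK cells, against 28.5 CPM in other aged cells and 77.2 CPM in other young cells. Nkg7, a membrane protein of cytotoxic granules, was at 3987 CPM in aged and 4009 CPM in young NK cells, against 6.14 and 10.4 CPM in other aged and other young cells.

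Ncr1, the activating receptor NKp46, was at 631 CPM in aged and 641 CPM in young NK cells, and other cells held only 8 Ncr1 UMIs in the aged and 1 in the young library. Klrb1c, the receptor that marks NK cells of this mouse strain, was at 739 CPM in aged and 788 CPM in young NK cells. Klre1, a lectin-like receptor of the NK gene complex, was at 610 CPM in aged and 742 CPM in young NK cells. In follicular B cells, conventional dendritic cells, monocytes and neutrophils the highest level was 119 CPM for Ccl5 and 27.1 CPM for the other 5 markers. Since the labels were made from these same cells, these values describe the label and do not test it.

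**Figure D1:**
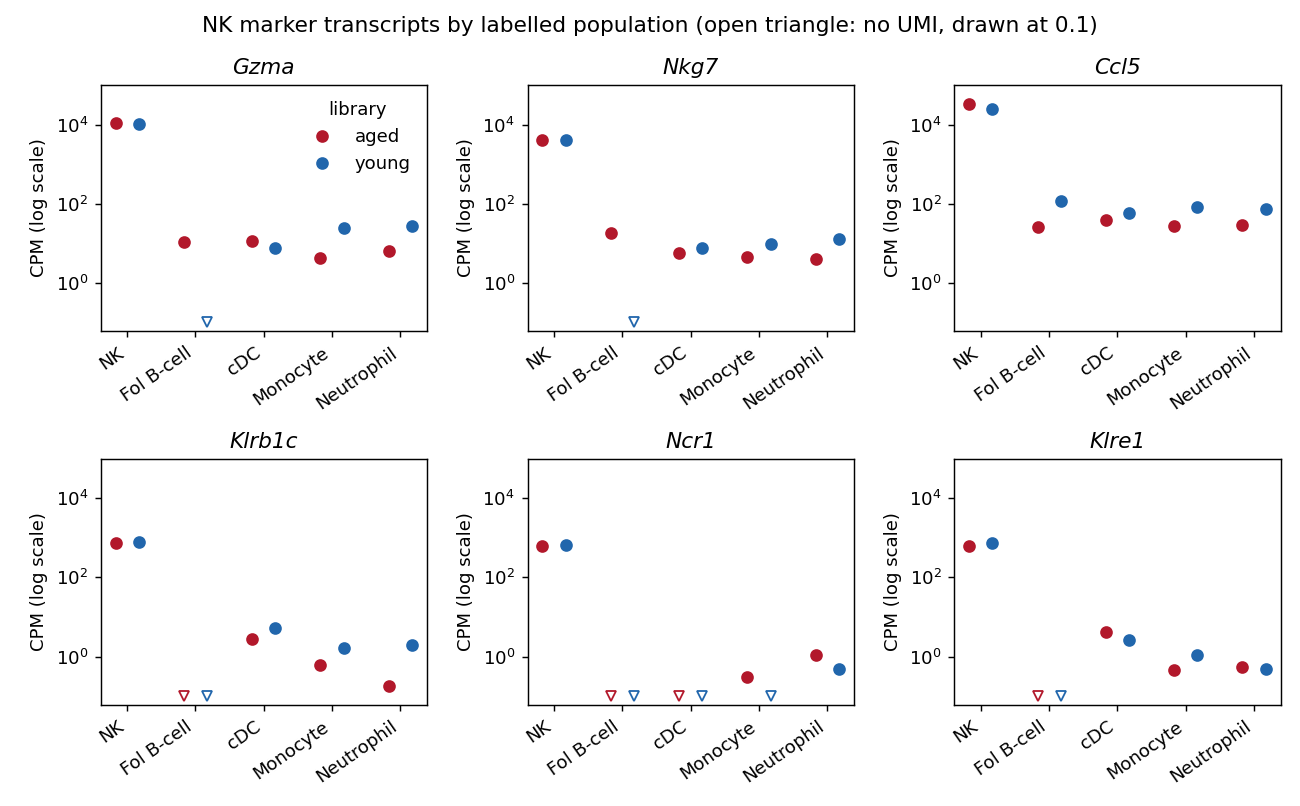
Level of each NK marker transcript in 5 labelled populations, in CPM on a log scale, with the aged library in red left of the young library in blue and an open triangle where no UMI was found. NK cells stand at 610 to 32958 CPM, far above every other population in both libraries.

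The windows around the transcription start of 3 markers are shown because the markers share their restriction to NK cells here. They come from RefSeq (build GRCm38.p6, 250 bases before to 50 bases after the start), are written along the gene's strand and have capitals at 3 short motifs searched on both strands, overlaps allowed. The motifs were the T-box core TCACAC (or GTGTGA), the RUNX core TGTGGT (or ACCACA) and the ETS core AGGAAG (or CTTCCT). T-bet and Eomes, Runx3 and Ets1 are factors of these families with known roles in NK cells.
Gzma, chr13:113100932-113101231, minus strand: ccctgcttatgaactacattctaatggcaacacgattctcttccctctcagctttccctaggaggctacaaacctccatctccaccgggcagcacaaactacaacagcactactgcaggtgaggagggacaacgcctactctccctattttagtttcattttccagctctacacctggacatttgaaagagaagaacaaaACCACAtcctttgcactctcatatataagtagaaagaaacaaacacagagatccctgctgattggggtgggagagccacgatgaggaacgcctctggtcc
Nkg7, chr7:43436888-43437187, plus strand: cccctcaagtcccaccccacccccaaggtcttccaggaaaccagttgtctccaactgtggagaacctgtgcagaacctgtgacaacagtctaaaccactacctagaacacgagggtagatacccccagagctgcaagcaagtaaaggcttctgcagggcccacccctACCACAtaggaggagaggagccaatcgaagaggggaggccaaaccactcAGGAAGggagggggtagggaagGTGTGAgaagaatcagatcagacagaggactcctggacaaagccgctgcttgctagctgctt
Ncr1, chr7:4337465-4337764, plus strand: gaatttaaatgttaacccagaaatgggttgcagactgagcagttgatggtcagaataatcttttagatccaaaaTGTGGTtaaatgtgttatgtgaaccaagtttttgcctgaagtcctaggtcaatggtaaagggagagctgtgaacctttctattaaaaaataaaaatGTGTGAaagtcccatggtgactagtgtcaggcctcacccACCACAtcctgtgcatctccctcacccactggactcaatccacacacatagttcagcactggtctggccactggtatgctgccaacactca

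The Gzma window held 1 RUNX core and neither of the other motifs. The Nkg7 window held 1 of each, and the Ncr1 window 2 RUNX cores and 1 T-box core. Klrb1c and Klre1 also had a RUNX core, and Ccl5 had no window in the table. The RUNX core stood in 16.9% of all 27025 promoter windows, in 13.6% of the 1415 windows of tested genes and in 23.2% of the 138 windows of genes at least 4-fold higher in NK cells. The T-box core stood in 14.4%, 10.9% and 15.2% of these sets and the ETS core in 35.1%, 37.6% and 44.2%. A match to such short letters is a description of the sequence and not a bound site.

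Of 1849 genes with at least 20 UMIs in NK cells, 188 (10.2%) were at least 4-fold higher in NK cells than in all other cells of the same library, in both libraries. The 20 genes with the highest ratios were led by receptors and granule genes. They were Ncr1, Klra9, Gzma, Gzmb, Klre1, Klra7, Klrc2, Nkg7, Ccl5, Klra4, Klra8, Klrc1, Klrb1c, Klrg1, Lck, Klra3, Ctsw, Txk, Klrk1 and Serpinb9b. Of these, 10 lie in the NK gene complex, a stretch of lectin-like receptor genes on chromosome 6. On GRCm38 with the GENCODE M21 annotation the stretch considered was chr6:128609227-131247362. It held 32 genes of the table, 17 of which reached 20 UMIs, and 16 of the 17 were at least 4-fold higher in NK cells.

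Granule genes showed the same restriction. Gzmb, granzyme B, was at 796 CPM in aged NK cells against 0.537 CPM in other aged cells, and at 1376 CPM in young NK cells against 2.27 CPM in other young cells. Ctsw, the cathepsin of killer lymphocytes, was at 416 and 414 CPM in aged and young NK cells and at 0.460 and 1.13 CPM in other cells. Serpinb9b, a relative of the granzyme B inhibitor Serpinb9, had no UMI in any other cell, so against a floor of 3 UMIs it was at least 499-fold higher in aged and at least 206-fold higher in young NK cells. In the list of cytotoxic granule genes, 9 of 14 measured members were at least 4-fold higher in NK cells, against 10.2% of all tested genes. Perforin (Prf1) did not reach the 20 UMIs, with 14 UMIs in aged and 4 in young NK cells.

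Receptors were restricted nearly as a whole. All 10 measured inhibitory receptors and 8 of 9 measured activating receptors were at least 4-fold higher in NK cells, against 10.2% of all tested genes. Klrk1, the activating receptor NKG2D, was at 968 CPM in aged and 1102 CPM in young NK cells and at 4.60 and 5.02 CPM in other cells. Klrd1, which pairs with the receptors of the Klrc group, was at 1147 and 1176 CPM in aged and young NK cells, and conventional dendritic cells held it at 214 and 110 CPM. The adapters behaved differently from the receptors. Tyrobp, which carries the signal of several activating receptors, was at 3162 CPM in aged and 3321 CPM in young NK cells, below the 6805 and 8896 CPM of aged and young neutrophils. Lck and Txk, kinases of NK and T cells, were at 402 and 394 CPM in aged NK cells and 374 and 441 CPM in young NK cells, and at or below 1.29 CPM in other cells.

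Lineage factors were low in level but restricted, with 8 of 12 measured members at least 4-fold higher in NK cells, against 10.2% of all tested genes. Eomes, which together with Tbx21 drives NK maturation, had 14 UMIs in aged NK cells and none in other aged cells, and against a floor of 3 UMIs it was at least 436-fold higher. In the young library it was at 227 CPM in NK cells, 234-fold above other cells. Tbx21, encoding T-bet, had 10 UMIs in aged and 16 in young NK cells. Id2, which restrains the B and T cell programmes, was the most abundant at 1599 CPM in aged and 1744 CPM in young NK cells.

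Cell by cell, the label held a second kind of cell. Of the 128 cells, 116 carried at least 3 of the 6 markers (48 aged, 68 young) and are called marker-positive here. The other 12 cells (10 aged, 2 young) carried at most 2 markers, always Ccl5 or Nkg7, and no UMI of Gzma, Klrb1c, Ncr1 or Klre1. All 12 carried a UMI of Cd3d, Cd3e or Cd3g, the invariant chains of the T cell receptor, with at least 3 such UMIs in 9 of the aged and 1 of the young cells. Among the 116 marker-positive cells, 1 aged cell had such a UMI. In these 12 cells the NK label goes against the markers, though 1 young cell held a single Cd3 UMI beside 2 Nkg7 UMIs and 1 Ccl5 UMI.

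The 10 aged cells among these 12 also carried other transcripts of T cells, which were sparse in the 2 young ones. Over the 10 aged cells the sums were 32 UMIs of Cd3d, 32 of Cd3g, 10 of Cd3e, 20 of the T cell adapter Lat, 10 of the T cell factor Tcf7, 11 of the homing receptor Ccr7 and 5 of Cd4. The 48 marker-positive aged cells held 0 UMIs of Cd3d, 2 of Cd3g, 1 of Cd3e, 8 of Lat, 1 of Tcf7 and none of Ccr7 or Cd4. The interleukin 7 receptor Il7r summed to 11 UMIs in the 10 aged cells, against 0 in marker-positive aged cells. The 2 young cells held 1 Lat UMI each and 0 of Tcf7, Ccr7 and Cd4. Their 4 Il7r UMIs lay in 1 cell, against 1 Il7r UMI in marker-positive young cells. Ccl5 was high in 4 of the 10 aged cells, with 62, 74, 137 and 493 UMIs, and absent from the other 6.

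When all cells were clustered again without the labels, the cluster with most NK-labelled cells held exactly the 116 marker-positive cells and no others. The 12 remaining cells lay together in another cluster with 1 aged cell labelled Monocyte. Both groups were formed from the same transcripts, so this is a description.

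**Figure D2:**
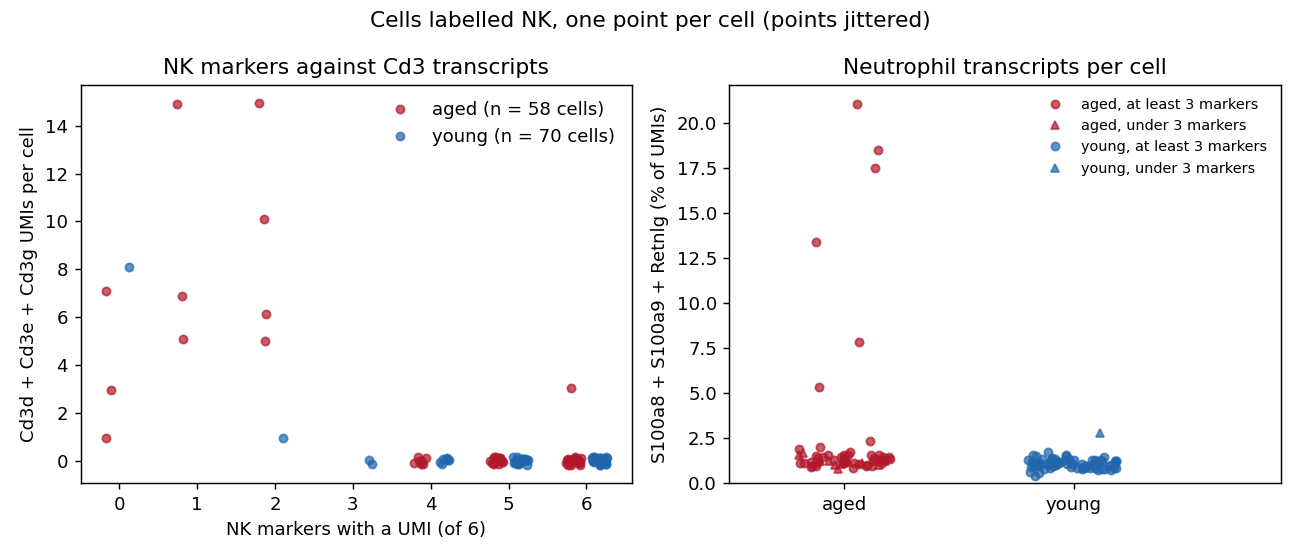
Left, NK markers with a UMI against the summed UMIs of Cd3d, Cd3e and Cd3g in each NK-labelled cell, with 58 aged cells in red and 70 young cells in blue. Right, the share of each cell's UMIs from S100a8, S100a9 and Retnlg. The 12 cells with at most 2 markers all have a Cd3 UMI, and 6 aged cells exceed 5% neutrophil transcripts.

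Neutrophil transcripts also differed between the NK-labelled cells of the libraries. S100a8, S100a9 and Retnlg, which neutrophils make in large amounts, together took a median of 1.29% of a cell's UMIs in aged and 1.09% in young NK-labelled cells. In 6 aged cells, all marker-positive, the share was over 5% and reached 21.1%, while the highest young cell was at 2.78%. S100a8 was at 13230 CPM in aged against 5065 CPM in young NK-labelled cells, and at 5523 CPM in the aged cells once these 6 were left out. All 4 measured genes of the neutrophil list were at least 1.5-fold higher in aged NK-labelled cells, as were 9.68% of all 1849 tested genes, and the list summed to 29774 CPM against 11272 CPM in young ones.

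Transcripts of red cells went the other way. Hbb-bs, a globin, had 15 UMIs in aged and 81 in young NK-labelled cells, and it was also lower in the other cells of the aged library (1708 CPM) than in those of the young library (4787 CPM). All 3 measured genes of the erythroid list were at least 1.5-fold lower in aged NK-labelled cells, as were 18.3% of all tested genes, and the list summed to 186 CPM against 915 CPM in young ones. Of the 3 measured genes of the monocyte list, Lyz2, the lysozyme of myeloid cells, was lower at 366 CPM in aged against 842 CPM in young NK-labelled cells, the interval of Ccr2 included 1, and Ly6c2 had a ratio of 1.42 (1.10 to 1.85). The list summed to 1542 CPM in aged and 1837 CPM in young NK-labelled cells. B cell markers summed to 1 and 0 UMIs, dendritic markers to 11 and 14, platelet markers to 2 and 6, and basophil or mast cell markers to 0 and 0 in aged and young NK-labelled cells. How far free or foreign RNA entered the differences that follow was not tested, and for the main genes values in the marker-positive cells stand beside them.

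The second question was how large the NK population was in each library. NK-labelled cells made up 1.52% (exact binomial interval 1.15% to 1.96%) of the 3820 aged cells and 3.84% (3.01% to 4.83%) of the 1822 young cells, a ratio of 0.395 (0.274 to 0.568). Marker-positive cells made up 1.26% (0.928% to 1.66%) of aged and 3.73% (2.91% to 4.71%) of young cells, a ratio of 0.337 (0.228 to 0.494). The intervals of the shares did not overlap. The sort on CD11b and Ly6G, in proportions that the sources used here do not give, and the lowest depth of 1451 UMIs in the aged against 1260 UMIs in the young library can set such shares. In the same libraries neutrophils were 68.8% of aged and 62.2% of young cells.

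The third question was which transcripts differed between aged and young NK cells. Ranked by the interval bound nearest to 1, Ccl4, Wdr89, Gatad2b, Jund and Klra7 stood lowest in aged NK-labelled cells, and Cd3d, Cd3g, Ly6a, Rnf138 and Gtf2i highest. Gzmb, Eomes and Zeb2 were lower and Srgn higher as members of the gene lists, outside the 12 genes ranked on each side. None of the 6 markers differed by 1.5-fold or more, and the median log2 ratio of all tested genes was -0.06. Of 1849 genes tested, 58 (3.14%) were at least 2-fold higher and 123 (6.65%) at least 2-fold lower in aged NK-labelled cells. With TMM scaling, which moved the median log2 ratio to 0.07, the split was 84 higher and 85 lower. Among marker-positive cells 1676 genes were tested, 55 (3.28%) were higher and 106 (6.32%) lower, and 35 of the higher and 83 of the lower genes were shared with the call over all NK-labelled cells.

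**Figure D3:**
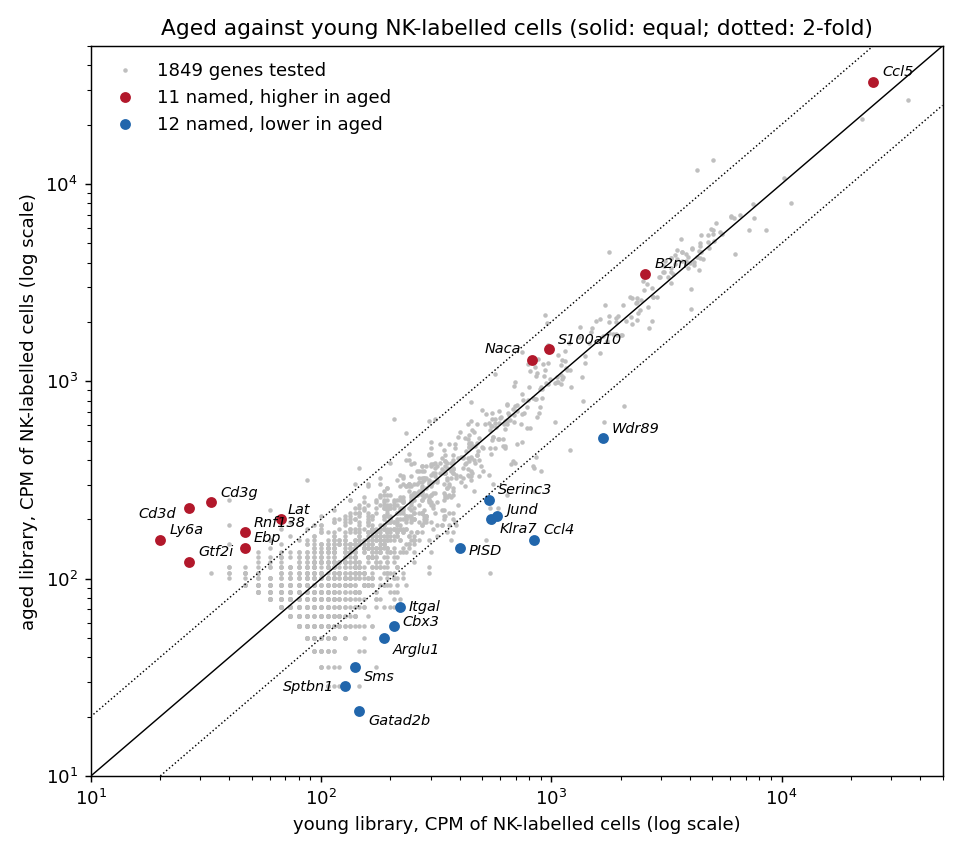
Level of each of 1849 tested genes in NK-labelled cells of the aged library (y axis) and the young library (x axis), in CPM on log scales. Named genes are in colour, 11 that were higher in the aged library in red and 12 that were lower in blue, with Ccl4 and Wdr89 well below the 2-fold line and Ccl5 at the upper end.

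Of the 11 genes named here as higher in aged NK-labelled cells, several came from the 12 cells with Cd3 transcripts. Cd3d had 32 UMIs in aged and 4 in young NK-labelled cells, a ratio of 8.59 (3.04 to 33.4), and no UMI in marker-positive cells of either library. Cd3g had 34 and 5 UMIs in aged and young NK-labelled cells, of which marker-positive cells held 2 and 0. Ly6a, the surface antigen Sca-1, had 22 and 3, of which marker-positive cells held 1 and 0. Lat had 28 UMIs in aged and 10 in young NK-labelled cells, and 8 in each among marker-positive cells, where its ratio was 1.29 (0.424 to 3.96). The higher level of these 4 genes is thus not seen among marker-positive cells at this depth. Doublet removal had taken 1 aged and 2 young NK-labelled cells with under 3 markers, so it enters the counts of such cells. Under the other ways of processing that gave a finite ratio, Cd3d was at 3.15 or above and Cd3g at 3.80 or above.

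The rest of the higher named genes also had ratios above 1 among marker-positive cells. Ccl5 had a ratio of 1.32 (1.26 to 1.38) over all NK-labelled cells and 1.33 (1.27 to 1.39) over marker-positive cells. A single aged cell held 493 of the 4596 aged Ccl5 UMIs, and without the top cell of each library the ratio was 1.23. B2m, the light chain of MHC class I, was at 3514 CPM in aged and 2566 CPM in young cells, a ratio of 1.37 (1.20 to 1.57), and 1.36 (1.17 to 1.57) over marker-positive cells. Rnf138, a ubiquitin ligase, had 24 UMIs in aged and 7 in young cells, a ratio of 3.68 (1.54 to 10.1). It was found in 19 aged and 7 young cells, with at most 3 UMIs in any cell.

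Gtf2i, a general transcription factor, had 17 UMIs in aged and 4 in young cells, and Ebp, an enzyme of cholesterol synthesis, had 20 and 7. Both rest on few counts, with intervals of 1.49 to 18.6 and 1.25 to 8.58. Over marker-positive cells Gtf2i had 9 and 3 UMIs in aged and young cells and an interval of 0.969 to 22.3, which includes 1. Naca, which binds new proteins at the ribosome, was 1.55-fold higher, but 59.8% of the 50-base windows near the ends of its transcripts also occur in other genes, so its count is uncertain. S100a10, a protein partner of annexin, was 1.49-fold (1.20 to 1.86) higher over all NK-labelled cells and 1.30-fold (1.03 to 1.65) over marker-positive cells. A single aged cell held 31 of its 203 aged UMIs. S100a10 was higher in aged monocytes (1.76, 1.69 to 1.84) and B cells (2.58, 1.73 to 3.98) as well. In dendritic cells (0.983 to 1.34) and neutrophils (0.723 to 1.25) its interval included 1.

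The 12 named genes that were lower in aged NK-labelled cells were all lower in marker-positive cells too. Ccl4 had a ratio of 0.187 (0.113 to 0.296), and 0.195 (0.114 to 0.318) over marker-positive cells. Klra7 was at 0.366 (0.230 to 0.569). Jund, a subunit of the AP-1 transcription factor, was at 208 CPM in aged and 581 CPM in young cells, a ratio of 0.358 (0.226 to 0.550), and 0.328 (0.193 to 0.534) over marker-positive cells. Jund was lower in the aged library in other populations as well, with ratios of 0.605 in monocytes, 0.503 in neutrophils and 0.659 in B cells. Itgal, the integrin chain with which lymphocytes bind ICAM-1 on target cells and endothelium, had 10 UMIs in aged and 33 in young cells, a ratio of 0.325 (0.143 to 0.676), and 0.392 (0.172 to 0.815) over marker-positive cells. Itgal was lower in the aged library in monocytes (0.592, 0.515 to 0.681) and neutrophils (0.553, 0.490 to 0.624) as well.

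Wdr89 was ranked next after Ccl4, at 0.308 (0.234 to 0.402), with 516 CPM in aged and 1677 CPM in young cells. Its ratio was alike in every other population, at 0.297 in monocytes, 0.237 in neutrophils, 0.284 in B cells and 0.333 in dendritic cells. Of its end windows 19.9% occur in other genes, so what its count holds is uncertain. The others, Gatad2b, PISD, Cbx3, Arglu1, Sptbn1, Sms and Serinc3, had ratios between 0.146 and 0.470. Several were lower in other populations of the aged library too, with intervals below 1. In monocytes PISD was at 0.605, Cbx3 at 0.720, Arglu1 at 0.729 and Serinc3 at 0.873. In neutrophils PISD was at 0.608, Cbx3 at 0.586, Serinc3 at 0.779 and Gatad2b at 0.657. For Sptbn1 and Sms the intervals in B cells, dendritic cells, monocytes and neutrophils all included 1. Gatad2b, Sptbn1, Sms, Arglu1 and Cbx3 had 3 to 8 UMIs in the aged cells, and their upper bounds lay between 0.487 and 0.696. Serinc3, a serine incorporator of membranes, was best counted, with 35 UMIs in aged and 80 in young cells.

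The chemokine result came from few cells. Ccl3 and Ccl4, neighbours on chromosome 11 (chr11:83647844-83649355 and chr11:83662584-83664683, GRCm38), encode chemokines that activated NK cells release to attract other leukocytes. Ccl4 had 22 UMIs in 18 aged cells, with at most 3 in a cell, and 126 UMIs in 25 young cells. The 6 young cells with at least 5 Ccl4 UMIs held 35, 30, 14, 11, 6 and 5, together 101 of the 126. No aged cell had as many, and the remaining cells summed to 22 UMIs in the aged and 25 in the young library. The lower aged total thus rests on those 6 young cells.

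Ccl3 had the same form. It had 23 UMIs in aged and 48 in young cells, a ratio of 0.514 (0.299 to 0.862), and the young cell with the most Ccl4 held 23 of the 48. The other 5 young cells with at least 5 Ccl4 UMIs held 0 to 5 Ccl3 UMIs. Ifng, the main cytokine of NK cells, had 10 UMIs in aged and 14 in young cells, and Xcl1, a chemokine for cross-presenting dendritic cells, had 12 in each. Of 8 measured chemokine and cytokine genes, 1 (Ltb) was at least 1.5-fold higher in aged cells, where 9.68% of all tested genes were, and 2 (Ccl3 and Ccl4) at least 1.5-fold lower, where 18.3% were.

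The share of marker-positive cells with a Ccl4 UMI depended on depth. At all UMIs it was 35.4% of 48 aged and 36.8% of 68 young cells, which had median depths of 2038.5 and 1962 UMIs. With each cell thinned to 1000 UMIs it was 4 of 48 aged cells, or 8.33% (2.32% to 19.98%), and 17 of 68 young cells (15.3% to 37.0%). In follicular B cells, which should lack the transcript, it was 0 of 41 aged and 0 of 14 young thinned cells, with exact upper bounds of 8.60% and 23.2%. At all UMIs it was 7.32% of aged and 0 of 14 young B cells, with medians of 5717 and 3463.5 UMIs. Thinned monocytes, with medians of 6401.5 and 6606.5 UMIs before thinning, had a Ccl4 UMI in 0.966% (0.442% to 1.83%) of aged and 1.11% (0.409% to 2.40%) of young cells. Neutrophils hold the transcript themselves, at 112 CPM in the aged and 78.0 CPM in the young library. Cells labelled Mast cell, found in the aged library only, held far more, with Ccl4 at 3314 CPM and Ccl3 at 6691 CPM. Whether RNA of these cells entered the NK-labelled cells was not tested.

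**Figure D4:**
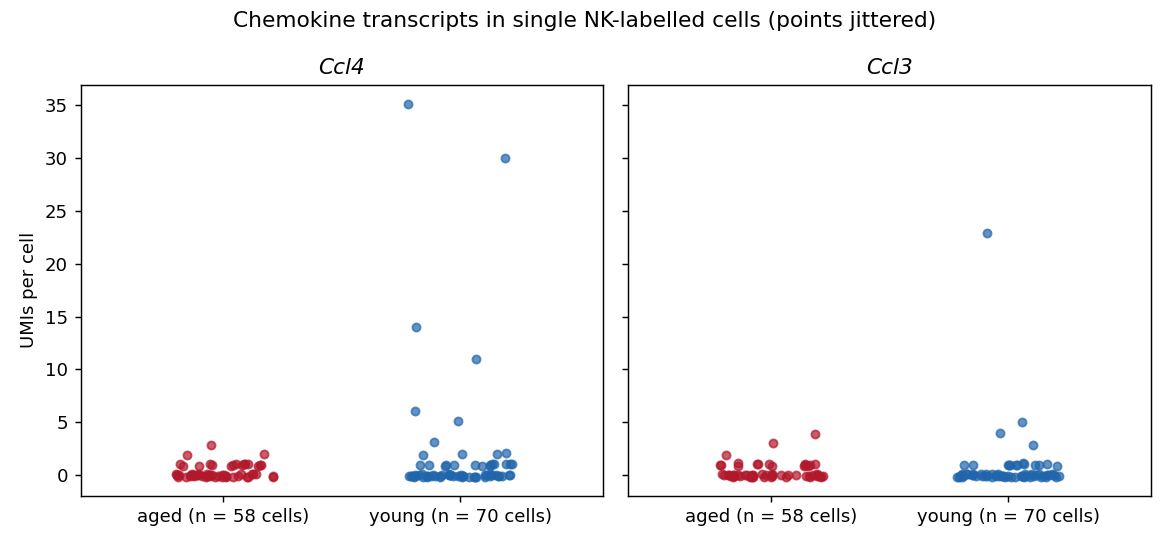
UMIs of Ccl4 (left) and Ccl3 (right) in each NK-labelled cell, aged in red and young in blue, with points jittered. The 6 young cells with 5 to 35 Ccl4 UMIs hold 101 of the 126 young UMIs, and no aged cell exceeds 3.

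Among granule genes, Gzma was at the same level over all NK-labelled cells, with a ratio of 1.04 (0.967 to 1.12). Over marker-positive cells, which held all of its UMIs, the ratio was 1.25 (1.17 to 1.35). Gzmb was lower in the aged library, at 796 CPM against 1376 CPM in young cells, a ratio of 0.578 (0.455 to 0.732), and 0.698 (0.549 to 0.883) over marker-positive cells. It was found in 60.4% of 48 aged and 67.6% of 68 young marker-positive cells, and in 47.9% and 58.8% after thinning. Neutrophils, with medians of 1900 and 1629 UMIs, had a Gzmb UMI in 0.190% of aged and 0.618% of young cells. The summed levels of the 2 granzymes thus differed in direction between the libraries among marker-positive cells. For Gzmb the young sum rested in part on few cells. Single young cells held 28, 28 and 17 of the 206 young Gzmb UMIs, while no aged cell held more than 9 of the 111 aged ones.

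Srgn, serglycin, the proteoglycan that holds granule proteases, was at 1090 CPM in aged against 568 CPM in young NK-labelled cells, a ratio of 1.92 (1.46 to 2.53). Over marker-positive cells the ratio was 1.93 (1.44 to 2.58), and without the 6 aged cells over 5% neutrophil transcripts it was 1.64 (1.23 to 2.20). Aged neutrophils held it at 4150 CPM and young ones at 3441 CPM, aged B cells at 1385 CPM and young ones at 701 CPM. Nkg7 and Ctsw had ratios of 0.995 (0.885 to 1.12) and 1.00 (0.690 to 1.46). Prf1, with 14 aged and 4 young UMIs, had a ratio of 3.76 with an interval of 1.18 to 15.7, and 12 and 4 UMIs in aged and young marker-positive cells. Over the 14 measured granule genes 3 were at least 1.5-fold higher (Srgn, Lamp1 and Lamp2) and 2 lower (Gzmb and Ctsc), against 9.68% and 18.3% of all tested genes, with a median log2 ratio of 0.20. Over marker-positive cells 4 of 13 were higher (Srgn, Cst7, Lamp1 and Serpinb6b) and none lower, against 10.3% and 18.0% of all genes tested there, with a median of 0.40.

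Activating receptors were at similar levels in both libraries. Of 9 measured, none was at least 1.5-fold higher and 1 (Cd244) lower, against 9.68% and 18.3% of all tested genes. The median log2 ratio was -0.12 and lay between -0.22 and 0.20 under the other ways of processing. Ncr1 had a ratio of 0.984 (0.728 to 1.33), Klrb1c 0.937 (0.712 to 1.23) and Klrk1 0.878 (0.694 to 1.11). Cd244, a receptor of the SLAM family, had 15 UMIs in aged and 34 in young cells, a ratio of 0.473 (0.240 to 0.893). Among marker-positive cells its interval of 0.289 to 1.08 included 1.

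Of 10 measured inhibitory receptors, 4 were at least 1.5-fold lower (Klra7, Klrc1, Klrb1b and Klri2) and 1 higher (Klra3) in the aged library, against 18.3% and 9.68% of all tested genes. Over marker-positive cells 3 were lower (Klrc1, Klra7 and Klrb1b) and 3 higher (Klrg1, Klra1 and Klra3), against 18.0% and 10.3% of all genes tested there. Klrc1, the chain NKG2A that reads the class I molecule Qa-1, had 24 UMIs in aged and 53 in young cells, a ratio of 0.486 (0.287 to 0.801). Over marker-positive cells its ratio was 0.586 (0.346 to 0.966). Klrc1 shares 43.5% of its end windows with Klrc2 and Klrc3, so reads may have moved between them, and Klrc2 itself was at 0.676 (0.457 to 0.991). The median log2 ratio of the list was -0.33, and -0.06 over marker-positive cells, and it lay between -0.41 and 0.02 under the other ways of processing.

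Within the Ly49 family the members went in different directions among marker-positive cells, and the mix changed more than the sum. The 6 measured members are the activating receptors Klra4 (Ly49D) and Klra8 (Ly49H) and the inhibitory Klra1 (Ly49A), Klra3 (Ly49C), Klra7 (Ly49G) and Klra9 (Ly49I). Over marker-positive cells the list with its 2 unmeasured members summed to 4089 CPM in the aged and 3584 CPM in the young library. Over all NK-labelled cells the order was the reverse, at 3248 CPM in the aged and 3434 CPM in the young library. The median log2 ratio of the list was 0.11 there and lay between -0.27 and 0.51 under the other ways of processing. Klra7 was at 253 CPM in aged and 572 CPM in young marker-positive cells, a ratio of 0.442 (0.277 to 0.686). Klra3 was at 379 and 188 CPM in aged and young cells, a ratio of 2.01 (1.21 to 3.40), and Klra4 at 1381 and 906 CPM, a ratio of 1.52 (1.20 to 1.94).

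Klra8 and Klra9 did not differ beyond counting error, with ratios of 1.11 (0.880 to 1.39) and 0.929 (0.667 to 1.29), and neither did Klra1 at 1.70 (0.845 to 3.48). In aged marker-positive cells the order of level was Klra4, Klra8, Klra9, Klra3, Klra7 and Klra1, and in young ones Klra8, Klra4, Klra9, Klra7, Klra3 and Klra1. The intervals of Klra4 and Klra8 overlapped in both libraries. The family is made of near copies, and 49.4% of the end windows of Klra9, 31.5% of Klra3, 22.1% of Klra7 and 13.1% of Klra8 occur in another Ly49 gene or pseudogene, against 4.66% of Klra4 and 5.76% of Klra1. Reads of Klra3 and Klra9 in particular may be split or lost.

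Klra7 was found in fewer aged cells, at 33.3% of 48 aged and 52.9% of 68 young marker-positive cells, and at 27.1% (15.3% to 41.8%) and 39.7% (28.0% to 52.3%) after thinning, with overlapping intervals. Klra4 was found in 58.3% of aged and 36.8% of young cells, and in 24 of 48 aged (35.2% to 64.8%) and 29.4% (19.0% to 41.7%) of young cells after thinning. Neutrophils, with medians of 1900 and 1629 UMIs, had a Klra4 UMI in 0.114% of aged and 0.265% of young cells, and a Klra7 UMI in none of the aged and 0.0883% of the young cells. The number of the 6 Ly49 genes found in a cell, thinned to 1000 UMIs, had a median of 2 in both libraries and a mean of 2.08 in aged and 1.79 in young cells. Without thinning the medians were 3 in aged and 2 in young cells. After thinning, 6 of 48 aged and 2 of 68 young cells carried 4 of the genes, and none carried more.

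**Figure D5:**
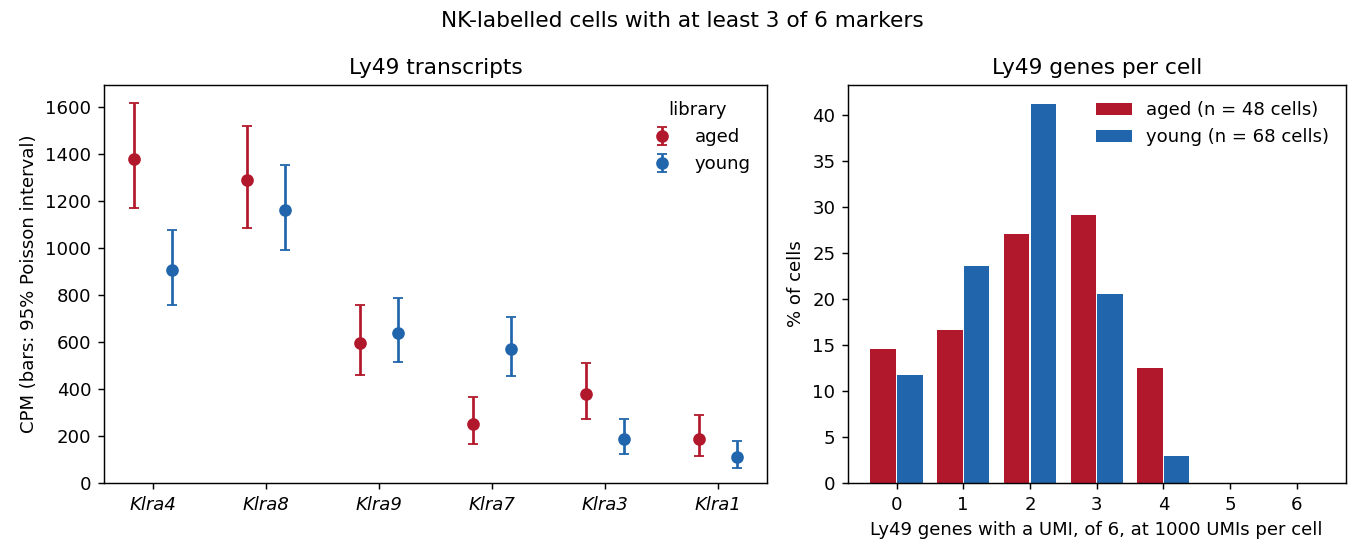
Left, level of 6 Ly49 transcripts in marker-positive cells, in CPM with 95% Poisson intervals, the aged library in red left of the young library in blue. Right, the number of these genes with a UMI per cell at 1000 UMIs, as a percentage of 48 aged and 68 young cells. Klra7 is lower and Klra4 and Klra3 higher in the aged library, and the most frequent number is 3 in aged and 2 in young cells.

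Of 12 measured transcription factors of the NK lineage, none was at least 1.5-fold higher and 4 (Eomes, Zeb2, Irf2 and Gata3) were lower in the aged library, against 9.68% and 18.3% of all tested genes, with a median log2 ratio of -0.40, and -0.39 to -0.11 under the other ways of processing, marker-positive cells among them (-0.28). Eomes had 14 UMIs in aged and 34 in young NK-labelled cells, a ratio of 0.442 (0.219 to 0.845), and 11 and 34 in marker-positive cells, a ratio of 0.419 (0.191 to 0.847). Zeb2, which acts late in NK maturation, had 26 and 58 UMIs in aged and young cells, a ratio of 0.481 (0.291 to 0.777), and 0.558 (0.334 to 0.906) over marker-positive cells. Tbx21 had a ratio of 0.671 with an interval of 0.272 to 1.57, and Id2 of 0.917 (0.763 to 1.10). Eomes was found in 18.8% of aged and 35.3% of young marker-positive cells, and in 3 of 48 aged (1.31% to 17.2%) and 17 of 68 young cells (15.3% to 37.0%) after thinning. It was found in no aged and 1 young neutrophil.

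Ets1, a factor of lymphocyte development, showed how the second kind of cell enters a sum. Over all NK-labelled cells its ratio was 0.724 (0.436 to 1.19), and over marker-positive cells it was 0.474 (0.244 to 0.874), with 15 UMIs in aged and 41 in young cells. The 10 aged cells with Cd3 transcripts held the other 14 aged Ets1 UMIs.

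CD27 and CD11b mark the early and late stages of maturation, and their transcripts Cd27 and Itgam had 26 and 25, and 13 and 13 UMIs in aged and young cells. Of 16 measured genes of the list, 4 were at least 1.5-fold higher (Emb, Ctla2a, Ltb and Cd28) and 1 lower (Zeb2), against 9.68% and 18.3% of all tested genes, with a median log2 ratio of 0.24. Over marker-positive cells 6 of 15 were higher (Klrg1, Emb, Ly6c2, Cma1, Ctla2a and Ltb) and 2 lower (Thy1 and Zeb2), against 10.3% and 18.0% of all genes tested there, with a median of 0.49. Ly6c2, a surface antigen gained by mature NK cells, was at 1183 CPM in aged and 725 CPM in young marker-positive cells, a ratio of 1.63 (1.25 to 2.13). Monocytes make it too, at 1100 CPM in the aged and 945 CPM in the young library. Klrg1, an inhibitory receptor of late NK cells, had 26 UMIs in aged and 19 in young cells, with a ratio of 1.47 (0.782 to 2.81), and 1.70 (0.901 to 3.27) over marker-positive cells. S1pr5, with which NK cells leave the bone marrow, had 17 and 15 UMIs.

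Of 17 measured genes of receptor signalling, 3 (Lat, Cd247 and Inpp5d) were at least 1.5-fold higher in aged cells and 1 (Sh2d2a) lower. Over all tested genes the shares were 9.68% and 18.3%. The median log2 ratio of the list was 0.10 and lay between -0.07 and 0.23 under the other ways of processing. The 3 adapters that carry activating signals, Tyrobp, Hcst and Fcer1g, had ratios of 0.952, 0.920 and 0.926, each with an interval that included 1. Cd247, the zeta chain shared by NK and T cells, had 18 UMIs in aged and 9 in young NK-labelled cells, but 10 and 9 among marker-positive cells.

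Of 16 measured genes of MHC class I and its peptide loading, 2 (H2-T23 and Psmb9) were at least 1.5-fold higher in aged cells. Only 1 (Psme2) was lower, and the shares over all tested genes were 9.68% and 18.3%. The median log2 ratio of the list was 0.28, and 0.08 over marker-positive cells. It lay between -0.07 and 0.41 under the other ways of processing. The heavy chains H2-K1 and H2-D1 were at 0.912 (0.765 to 1.09) and 0.967 (0.839 to 1.11), while their light chain B2m was at 1.37. Psmb8, a subunit of the immunoproteasome, was at 717 CPM in aged and 501 CPM in young cells, a ratio of 1.43 (1.05 to 1.96), and 1.38 (0.994 to 1.92) over marker-positive cells.

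Of 10 measured interferon-stimulated genes, 3 were at least 1.5-fold higher (Ly6a, Ifi27l2a and Slfn2) and 1 lower (Gbp7) in aged NK-labelled cells, against 9.68% and 18.3% of all tested genes. Over marker-positive cells 1 of 7 was higher (Slfn2) and none lower, against 10.3% and 18.0% of all genes tested there. Slfn2, a regulator of lymphocyte quiescence, kept its direction among marker-positive cells, at 244 CPM in aged and 76.7 CPM in young ones, a ratio of 3.18 (1.53 to 7.10). Ifi27l2a had 31 UMIs in aged and 9 in young NK-labelled cells, but 1 and 7 among marker-positive cells. With Ly6a it was therefore carried by the cells with Cd3 transcripts in the aged library.

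Of 9 measured cytokine receptor and signalling genes, 2 (Socs3 and Stat3) were at least 1.5-fold higher in aged cells. Another 2 (Il18r1 and Il10rb) were lower, and the shares over all tested genes were 9.68% and 18.3%. Il2rb, the chain through which NK cells read interleukin 15, was at 280 CPM in aged and 274 CPM in young cells, a ratio of 1.02 (0.641 to 1.62). Il18r1, the receptor of interleukin 18, had 11 UMIs in aged and 26 in young cells, a ratio of 0.454 (0.202 to 0.951), and an interval of 0.244 to 1.15 over marker-positive cells. Socs3, an inhibitor of cytokine signalling, had 24 UMIs in aged and 7 in young NK-labelled cells, and 7 and 4 among marker-positive cells.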

How the data were processed

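The deposited table held raw UMI counts of 11691 genes in 5793 cells, with the library and a population label for each cell, as the authors made it. Reads were processed with Cell Ranger 2.1.1, with mm10 as the genome build, per the submitters' processing notes. How the authors filtered cells and set the labels is not given in the sources used here. The aged library held 13752454 UMIs (median 2219 per cell) and the young library 6440664 (median 2022).

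Doublet scores came from scrublet in scanpy 1.11.5. Its automatic threshold called 0 aged and 4 young cells, so the highest scores were removed at 8 per 1000 cells for each 1000 cells, which took 124 aged (3.14%) and 27 young cells (1.46%), among them 5 aged and 3 young NK-labelled cells. Counts were summed per population and library. Genes needed 20 UMIs over both libraries and a UMI in each. Ratios have exact conditional binomial intervals, shares Clopper-Pearson intervals and sums Poisson intervals, computed with scipy 1.17.1. With 1 library per age there is no replicate check. Thinning drew 1000 UMIs from each cell without replacement, and no cell was shallower. Own clusters used 2000 variable genes, 30 principal components, 15 neighbours and the Leiden method at resolution 1. TMM factors came from edgeR 4.0.16, used for scaling only. Scripts that compute ratios were tested on simulated data.

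Named were the 12 highest and the 12 lowest aged over young ratios, ranked by the interval bound nearest to 1, among genes whose CPM in NK cells was at least that in other cells. For identity the 20 genes with the highest lower bound of NK over other cells were named. One of the 12 highest is not reported here. Both rankings passed over pseudogenes, gene models without a name, antigen receptor genes of B and T cells, globin genes, Xist, Tsix and the Y-linked genes (other X-linked genes stayed in), and genes of the ribosome and mitochondrial genome. Examples from the gene lists were picked with their values in view. The members, markers and lists were chosen with earlier results of these data known. Gene positions came from GENCODE M21, where 11330 gene names were matched. Windows of 50 bases within the last 500 bases of transcripts were compared between genes to find shared sequence.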

Additional observations from a re-analysis of the deposited data

Results flagged for a closer look

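In 9 cases the aged over young ratio of a named gene lay on 1 side of 1 in NK-labelled cells and on the other side in another population, with both intervals clear of 1. With 1 library per age the difference between populations was not tested.

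Ccl5 had a ratio of 1.32 in NK-labelled cells, against 0.336 (0.277 to 0.407) in monocytes, 0.390 (0.309 to 0.491) in neutrophils and 0.215 (0.0664 to 0.678) in B cells. In those 3 populations its level was 25.6 to 28.6 CPM in the aged and 73.5 to 119 CPM in the young library, where NK cells were also the larger share of cells. Ccl4 had a ratio of 0.187 in NK-labelled cells, against 2.02 (1.33 to 3.13) in monocytes and 1.43 (1.20 to 1.72) in neutrophils. Gtf2i had a ratio of 4.56 in NK-labelled cells, from 17 aged and 4 young UMIs, against 0.585 (0.402 to 0.851) in monocytes. Naca had a ratio of 1.55, against 0.513 (0.449 to 0.587) in neutrophils, and B2m a ratio of 1.37, against 0.785 (0.752 to 0.820) in neutrophils. Cd3g had a ratio of 7.30 in NK-labelled cells, carried by the cells with under 3 markers, against 0.313 (0.127 to 0.757) in neutrophils, where it was at 2.01 CPM in aged and 6.41 CPM in young cells.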

How the results depend on the processing

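No paired analysis was possible because each age has 1 library. The count of genes at least 2-fold higher in aged NK-labelled cells (58) became 12 with a minimum of 50 UMIs, 209 with a minimum of 10 UMIs and 31 with each cell thinned to 1000 UMIs, and the count of lower genes (123) became 28, 419 and 63. Fewer or more genes enter at another minimum, and thinning removes UMIs. In cells with at least 3 markers, no Cd3 UMI and at most 5% neutrophil UMIs 37 genes were higher and 99 lower. That setting, those without Cd3 cells or without cells over 5% neutrophil UMIs, and the one without the top cell of each gene were chosen after seeing the data. With ratios centred on the median gene 71 were higher and 111 lower, and with all doublets kept 87 and 134. The ratio of NK shares stayed between 0.288 and 0.405, and the count of genes at least 4-fold higher in NK cells between 168 and 191. None of the 24 named ratios changed direction under any alternative run that gave it a finite value, but 13 of 27 list medians did under at least 1. In marker-positive cells Cd3d had no UMI, and Cd3g and Ly6a had none in the young library. These genes therefore had no finite ratio there, and their direction was not tested in those cells. The Monocyte list median (-0.43) was 0.41 with all doublets kept. The median log2 ratio of the neutrophil list (1.36) was 0.13 without the cells over 5% neutrophil UMIs, and the log2 ratio of Rnf138 (1.88) was 3.73 after thinning. That of Lat (1.59) was 0.37 in cells with at least 3 markers. The neutrophil list has no value with free RNA subtracted. Depth limits genes with few UMIs, such as Prf1, Tbx21 and Cd27, whose shares of marker-positive cells at 1000 UMIs rest on 2 to 9 cells.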

Other observations

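Of 47 measured genes of oxidative phosphorylation, none was at least 1.5-fold higher and 3 (Uqcrq, Ndufb2 and Uqcrc1) were lower in aged NK-labelled cells. Over all tested genes the shares were 9.68% and 18.3%. The median log2 ratio of the list was -0.11 and lay between -0.12 and 0.03 under the other ways of processing. Uqcrq, a subunit of respiratory complex III, had 22 UMIs in aged and 55 in young cells, a ratio of 0.429 (0.249 to 0.716), and 0.513 (0.294 to 0.865) over marker-positive cells. Its ratio was 0.994 in monocytes and 0.801 in neutrophils. Of 82 measured ribosomal protein genes none was higher and 1 lower, against the same shares of all tested genes. Their median log2 ratio was 0.12. Over marker-positive cells it was 0.02, and 0 of 81 were higher and 4 lower, against 10.3% and 18.0% of all genes tested there. Of 9 genes of glycolysis in NK-labelled cells none was higher and 1 lower, against 9.68% and 18.3% of all tested genes. The lower one was the aldolase Aldoa, with 30 UMIs in aged and 54 in young cells. None of 4 measured cell cycle genes passed 1.5-fold either way, against the same shares.

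Hspa8, a constitutive chaperone of the heat shock family, was at 1535 CPM in aged and 969 CPM in young NK-labelled cells, a ratio of 1.58 (1.28 to 1.97), and its interval began at 1.19 over marker-positive cells. In monocytes its ratio was 0.925 and in neutrophils 1.03. Tmsb10, which binds actin monomers, was at 4417 CPM in aged and 6267 CPM in young NK-labelled cells, a ratio of 0.705 (0.636 to 0.781), and 0.660 (0.589 to 0.740) over marker-positive cells. It was lower in aged monocytes (0.720) and neutrophils (0.777) as well, and 39.3% of its end windows occur in other genes. Dusp2, a phosphatase induced in activated lymphocytes, had 26 UMIs in aged and 54 in young NK-labelled cells, a ratio of 0.517 (0.311 to 0.840), and 0.551 (0.323 to 0.914) over marker-positive cells. Dusp1, its relative, had 25 UMIs in aged and 10 in young cells, a ratio of 2.68 (1.24 to 6.26), and 2.72 (1.23 to 6.47) over marker-positive cells. Neutrophils held Dusp1 at 1291 CPM in the aged and 2204 CPM in the young library. The 6 aged cells over 5% neutrophil transcripts are all marker-positive, and how far neutrophil RNA entered the Dusp1 ratio was not tested.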
